A study of Homo sapiens with 3 samples.

Results

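Neuroendocrine cells package peptides in dense-core granules and use much of the machinery of neurons to release them. The genes described here are a list of 46 symbols in 3 groups, comprising 16 genes of the granule and its cargo, 14 genes of vesicle docking and fusion, and 16 neuronal genes. They were looked up by symbol among the 16793 symbols in the files. Of the 46, 44 were listed and GRP and STMN2 were not, so these 2 were not analysed here. A mean of at least 1 FPKM (fragments scaled to transcript length and to the mapped reads of the library) over the libraries was reached by 31 members, as it was by 11512 symbols in all, and the remaining 13 members are described by their values alone.

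Total RNA came from H446, an established human small cell lung cancer line, cultured for 48 h with vehicle, with 5 µM BAS or with 10 µM BAS. BAS is 3-bromoascochlorin, a small molecule that the series title places in a study of tumour growth and the MAPK pathway. All 3 groups were the same line under the same medium, and the sample labels name no further agent. There was 1 library per group, so the differences have no replicate check and no test. In the file headers the treated columns are named ASB85 and ASB810, while the sample labels give BAS with its dose. It could not be checked that the header codes stand for these doses, on which each value by dose depends.

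In a granule, the acidic proteins of the granin family condense with calcium and peptide hormones, prohormone convertases cut the precursors, and further enzymes trim and amidate them. Release follows when a vesicle SNARE pairs with plasma membrane SNAREs, with synaptotagmins as calcium sensors and with RAB3, complexin and UNC13 proteins setting how ready a vesicle is. Small cell lung cancer is a neuroendocrine tumour, and many of these genes serve as its pathology markers.

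With vehicle the 31 members past the filter ranged from 1.22 FPKM for SYN1 to 350.12 FPKM for CPE. The line expressed NEUROD1 at 104.96 FPKM and INSM1 at 72.85 FPKM with vehicle, and ISL1 was not listed. Among markers of other cells, 2 of 8 immune markers, 3 of 7 fibroblast markers, 2 of 6 endothelial markers, 1 of 7 glial markers and 5 of 8 epithelial markers passed the filter. Their summed levels with vehicle, 5 µM and 10 µM were 4.86, 7.41 and 9.73 FPKM for the immune list, and 752, 934 and 925 FPKM for the fibroblast list. The epithelial list summed to 19.6, 22.3 and 32.0 FPKM, the endothelial list to 59.2, 57.5 and 53.9 FPKM, and the glial list to 3.20, 3.36 and 4.44 FPKM. The fibroblast sum was nearly all collagen chains, COL1A2 at 389.39, 412.4 and 370.87 FPKM, COL3A1 at 297.04, 433.94 and 453.79 FPKM, and COL1A1 at 63.57, 85.84 and 98.52 FPKM, while DCN and LUM were at 0.31 FPKM or less in each library. Some single markers differed by dose. CD68 had 2.85, 6.05 and 7.34 FPKM. Among the keratins, KRT14 had 0.04, 2.01 and 4.87 FPKM and KRT7 had 5.74, 14.77 and 22.26 FPKM, while KRT8 had 4.81, 1.12 and 1.44 FPKM, KRT18 had 2.83, 0.60 and 0.68 FPKM, and KRT19 had 5.14, 3.34 and 2.46 FPKM. CDH5 was at 51.99 to 57.56 FPKM. PTPRC was at 0.92 to 1.09 FPKM, PECAM1 at 0.10 to 0.16 FPKM, EPCAM at 0.03 to 0.24 FPKM, and CD3E, MS4A1, NKG7, KDR, S100B and SOX10 were not listed. The part of these markers in the differences of the neuroendocrine genes was not tested. In bulk RNA, fewer cells of a kind and less RNA per cell cannot be told apart.

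Differences are on the log2(FPKM + 1) scale, treated minus vehicle, which understates the change of low genes. A difference of at least 1 is called 2-fold, and a difference past log2 of 1.5 is called 1.5-fold. At 10 µM, 21 of the 31 members (67.7%) were above vehicle, beside 56.5% of all 11512 genes. At 5 µM, 17 members (54.8%) were above vehicle, beside 53.2% of all genes. The median member differed from vehicle by 0.17 at 10 µM and 0.05 at 5 µM, where the medians of all genes were 0.05 and 0.02. The share of members above vehicle was thus larger than that of genes at large at the higher dose, and nearly the background share at the lower. Of the 21, RAB3A and SYT4 changed sign under other processing. Related genes outside the members went both ways at 10 µM. Above vehicle were 10 of 29 other neuronal genes, 8 of 20 other neuronal exocytosis genes and 4 of 6 other granule genes.

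Few members moved far. At 10 µM, 2 of 31 (6.45%) were at least 2-fold higher, CHGA and UCHL1, where 1.31% of all genes were. On the same scale 0 were 2-fold lower, where 0.643% of all genes were. On plain FPKM at 10 µM, PCSK2 was at 0.485 of its vehicle level, CHGA at 3.36 times and UCHL1 at 2.15 times theirs. The share of all genes past 2-fold on plain FPKM was not computed. At 5 µM, 0 members were 2-fold higher and 0 were 2-fold lower, beside 0.539% and 0.208% of all genes. Between 10 µM and 5 µM, 0 members were 2-fold higher and 0 lower, beside 0.0434% and 0.0434% of all genes. At the 1.5-fold limit, 5 members were higher at 10 µM (16.1%, beside 6.04% of all genes), namely CHGA, UCHL1, SYT11, PCSK1N and PCSK1. The members lower by that limit at 10 µM were 2, PCSK2 and SYT1 (6.45%, beside 3.44% of all genes). At 5 µM, CHGA, SYT11 and UCHL1 were higher by that limit (9.68%, beside 3.01%), and PCSK2 and SYT1 were lower (6.45%, beside 1.6%). Over the dose series, 15 members (48.4%) were ordered upward, vehicle under 5 µM under 10 µM, beside 32.9% of all genes. The order was downward in 7 members (22.6%), beside 20.8% of all genes.

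**Figure D1:**
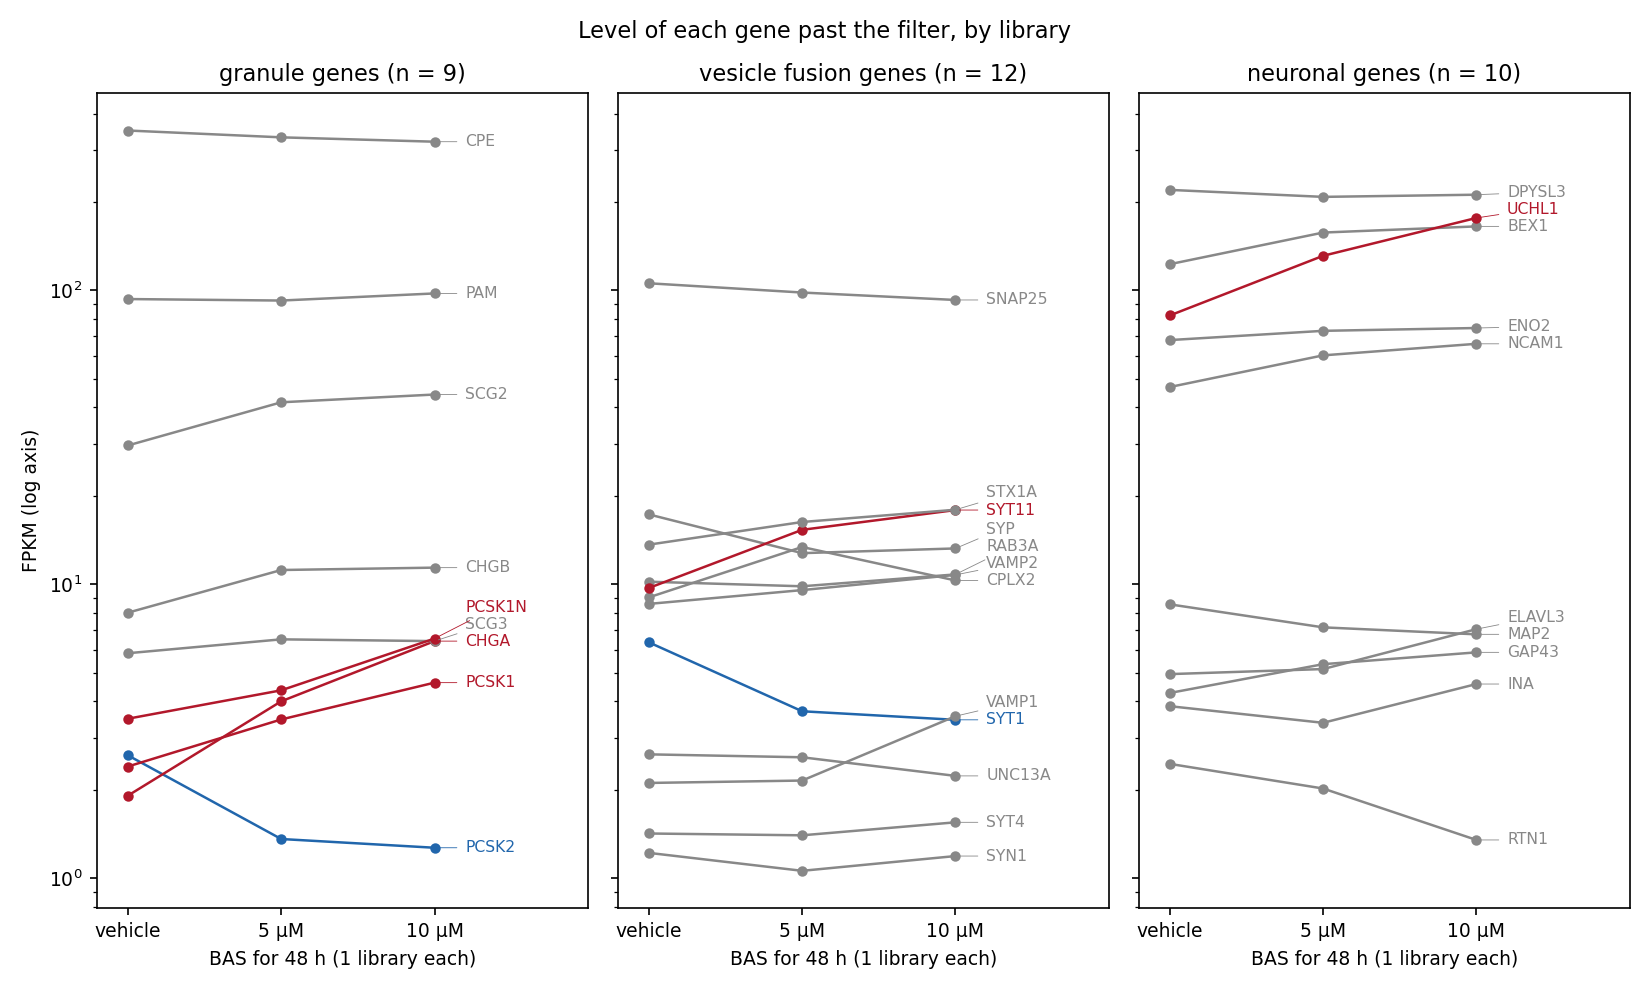
FPKM (log axis) of the 31 members past the filter with vehicle, 5 µM and 10 µM BAS, 1 library per point, in 3 panels for granule, vesicle fusion and neuronal genes. Lines in red were at least 1.5-fold higher at 10 µM than with vehicle on the log2(FPKM + 1) scale (5 genes), lines in blue 1.5-fold lower (2 genes), and the most abundant genes, CPE and DPYSL3, were nearly level.

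The granin genes past the filter were all above vehicle at both doses. CHGA encodes chromogranin A, the founding granin and a serum marker of neuroendocrine tumours. It stood at 1.91 FPKM in the vehicle library, 4 at 5 µM and 6.41 at 10 µM, a difference of 1.35 at 10 µM and 0.78 at 5 µM. On plain FPKM it was 3.36-fold higher at 10 µM than with vehicle, and its difference ranked at position 57 from the top of the 11512 genes. At 5 µM the plain ratio was 2.09. CHGA was the lowest of the 4 granins past the filter with vehicle, and equalled SCG3 at 10 µM.

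SCG2, secretogranin II, was the most abundant granin, with 29.69 FPKM in the vehicle library, 41.64 at 5 µM and 44.25 at 10 µM, a difference of 0.56 at 10 µM. CHGB, chromogranin B, had 8.01, 11.19 and 11.4 FPKM in the same order, a difference of 0.46 at 10 µM. For both, the treated libraries lay close together, while CHGA kept a difference of 0.57 between 10 µM and 5 µM. SCG3, which links granins to the cholesterol-rich granule membrane, had 5.83, 6.50 and 6.41 FPKM and differed from vehicle by 0.12 at 10 µM. With SCG5 and VGF the granin levels summed to 45.8 FPKM in the vehicle library, 63.9 at 5 µM and 69.5 at 10 µM.

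Of the 2 granin-like genes under the filter, VGF, a nerve growth factor inducible precursor of several peptides, had 0.31, 0.45 and 1 FPKM with vehicle, 5 µM and 10 µM. SCG5, the chaperone 7B2 of PCSK2, had 0.08, 0.12 and 0.04 FPKM. VGF was ordered upward by dose, while SCG5 was hardly detected in any library.

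The processing enzymes were split. PCSK1 cuts prohormones early in the granule, and it had 2.40 FPKM in the vehicle library, 3.47 at 5 µM and 4.63 at 10 µM, a difference of 0.73 at 10 µM. PCSK2 cuts later and at further sites, and it had 2.62, 1.36 and 1.27 FPKM, a difference of -0.67 at 10 µM and -0.62 at 5 µM. The convertases were near each other with vehicle, and at 10 µM PCSK1 was the higher one and PCSK2 the lower. PCSK1N, the precursor of the PCSK1 inhibitor proSAAS, had 3.49, 4.36 and 6.54 FPKM, a difference of 0.75 at 10 µM that came to 0.49 when trends with GC content and transcript length were removed. PCSK1 and its inhibitor were thus both above vehicle at 10 µM.

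CPE, the carboxypeptidase that trims the cut ends, was the most abundant member, with 350.12 FPKM in the vehicle library, 331.9 at 5 µM and 320.74 at 10 µM. PAM, which amidates peptides, had 93.49, 92.4 and 97.69 FPKM. Neither moved by more than 0.13 on the log2 scale. They made up 89.1% of the summed level of the granule genes with vehicle, and that sum was 498 FPKM in the vehicle library, 498 at 5 µM and 502 at 10 µM. The sum of granule transcripts therefore stayed level while the low and middling genes within it differed.

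The peptide and amine genes that were listed were low, and CALCB was the one that reached 1 FPKM. DDC, the decarboxylase of amine synthesis, was listed at 0, 0.06 and 0 FPKM with vehicle, 5 µM and 10 µM. CALCA, the calcitonin and CGRP precursor, was listed at 0, 0.07 and 0.03 FPKM, and GAL, the galanin precursor, at 0.06, 0 and 0 FPKM. CALCB, which encodes a second CGRP, had 0.05, 0.69 and 1.5 FPKM and was the highest of the 13 members under the filter. CALCB shared 4.03% of its 50-base sequences with other genes, so a small part of its reads could be split with CALCA. None of these peptide genes passed the filter.

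The granule genes past the filter numbered 9, of which 7 were above and 2 below vehicle at 10 µM, against 6 above and 3 below at 5 µM. Their median difference was 0.46 at 10 µM and 0.26 at 5 µM. It depended on the filter, and at 10 µM it was 0.12 both with no filter and with a filter at 5 FPKM. From a list of 20 other granule genes and related enzymes, 15 were listed and 6 passed the filter. At 10 µM, 4 were above and 2 below vehicle, with 0 past the 2-fold limit and a median of 0.22. The 6 include CPD, FURIN and PCSK7, processing enzymes of many cell types that are not particular to granules. PTPRN, a granule membrane protein, had 1.91, 3.23 and 3.51 FPKM, and SLC18A2, the vesicular monoamine transporter, had 2.05, 1.15 and 0.86 FPKM. RAB27A, a granule docking GTPase, had 4.24, 4.42 and 5.49 FPKM, and CPD, a carboxypeptidase related to CPE, had 26.55, 26.55 and 31.29 FPKM. These genes too went both ways.

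Among 20 other peptide precursors, 10 were listed and 4 passed the filter. UCN, the precursor of urocortin, had 0.78 FPKM in the vehicle library, 3.29 at 5 µM and 2.95 at 10 µM, and was the single gene of that list past the 2-fold limit, at both doses. It was under 1 FPKM with vehicle, so it passed the filter only through the treated libraries. NMB, the neuromedin B precursor, had 16.05, 22.07 and 23.06 FPKM, and NTS, the neurotensin precursor, had 65.45, 49.18 and 50.38 FPKM. NMU, the neuromedin U precursor, had 1.15, 0.69 and 1.21 FPKM. These peptide genes differed in direction. Of 11 receptors for such peptides, 6 were listed and 2 passed the filter. RAMP2, a receptor activity-modifying protein, had 23.56, 32.19 and 40.97 FPKM. Its receptor partner CALCRL had 2.98, 2.16 and 2.65 FPKM, and GRPR and NMBR were not listed.

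Promoter sequence was looked at for the granule genes because the cAMP response element is a known element of the CHGA promoter. RefSeq promoters on GRCh38.p14, from 250 bases before to 50 bases after each start, were found for 34 of the 44 listed members, 54 promoters in all. The letters TGACGTCA, which read the same on both strands, were in 4 member promoters (7.41%) and in 1.85% of all 35116 promoters. These were the promoters of CHGA, VGF, PCSK1 and SYN1, and the element begins 54, 79, 77 and 159 bases before the start in that order. The windows are shown so that these 4 can be compared, each 5′ to 3′ on the strand of its gene with the element in capitals.
CHGA, chr14:92923050-92923149, plus strand: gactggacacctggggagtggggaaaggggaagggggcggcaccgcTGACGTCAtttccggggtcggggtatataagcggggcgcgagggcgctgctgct
VGF, chr7:101165595-101165694, minus strand: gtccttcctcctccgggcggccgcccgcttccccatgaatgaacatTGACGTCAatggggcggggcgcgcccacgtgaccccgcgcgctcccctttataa
PCSK1, chr5:96433272-96433371, minus strand: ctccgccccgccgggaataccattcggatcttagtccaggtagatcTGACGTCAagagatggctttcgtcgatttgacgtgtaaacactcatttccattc
SYN1, chrX:47619963-47620062, minus strand: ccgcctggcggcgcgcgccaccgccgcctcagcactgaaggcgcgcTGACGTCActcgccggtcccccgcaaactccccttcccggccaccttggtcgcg
CHGA, VGF and PCSK1 were each ordered upward by dose, while SYN1, with the same letters, had 1.22, 1.06 and 1.19 FPKM. Over all genes the element went with no larger difference. Of 370 genes past the filter with it, 52.7% were above vehicle at 10 µM and the median difference was 0.02, where 56.7% and 0.05 held for the 9180 genes with any promoter in the table. Of those 370 genes, 4 (1.08%) were at least 2-fold higher, beside 1.26% of the 9180. Its TGACG core, on either strand and including the full element, was in 40.7% of the member promoters and 24.6% of all. A match is a description of letters and not of a bound site.

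**Figure D2:**
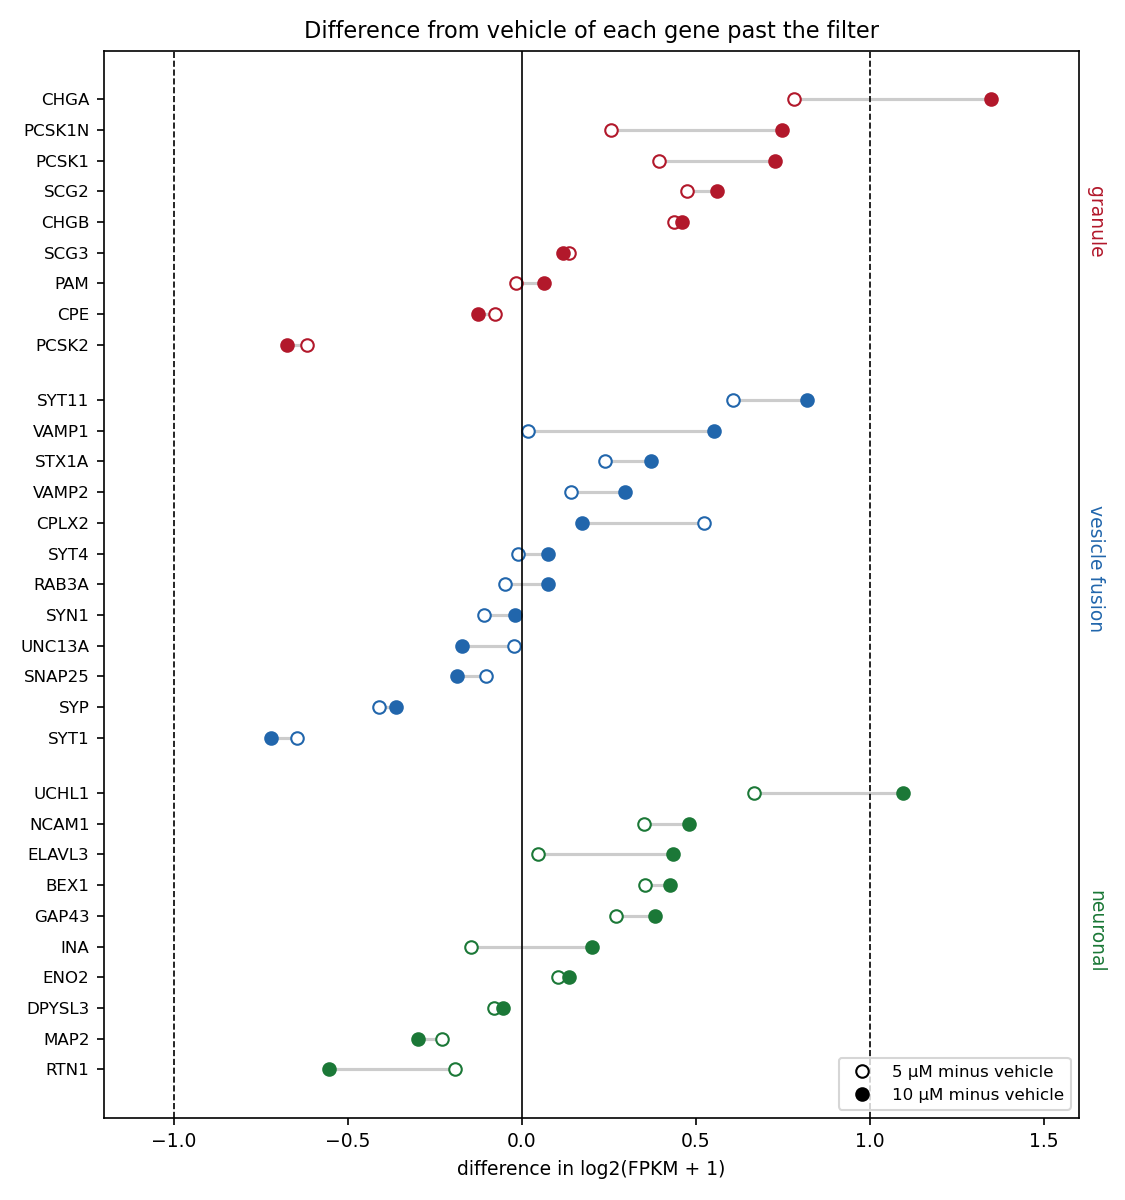
Difference from vehicle in log2(FPKM + 1) of the 31 members past the filter, open circles for 5 µM and filled circles for 10 µM, 1 library each, ordered within 3 groups. Dashed lines mark the 2-fold limit, which CHGA and UCHL1 passed at 10 µM and no member at 5 µM.

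The vesicle fusion genes were the most balanced group. Of 14 members, 12 passed the filter, with 7 above and 5 below vehicle at 10 µM, against 5 above and 7 below at 5 µM, and median differences of 0.08 and -0.02. With a filter at 5 FPKM the median at 5 µM was 0.14. Their summed level was 189 FPKM in the vehicle library, 188 at 5 µM and 187 at 10 µM. SNAP25 alone made up 105.79, 98.39 and 92.82 FPKM of these sums, so the level sum does not mean that the other genes were level.

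The widest split was among the synaptotagmins. SYT1, the fast calcium sensor of synaptic vesicle release, had 6.35 FPKM in the vehicle library, 3.70 at 5 µM and 3.46 at 10 µM, a difference of -0.72 at 10 µM and -0.65 at 5 µM. SYT11, which binds no calcium and takes part in vesicle recycling, had 9.72, 15.33 and 17.9 FPKM, a difference of 0.82 at 10 µM and 0.61 at 5 µM. SYT11 was the higher one with vehicle, and the gap was wider at both doses. SYT4, a synaptotagmin of dense-core granules, had 1.42, 1.40 and 1.55 FPKM, a difference of 0.08 at 10 µM that was -0.0039 with quantile normalization.

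Among the SNAREs, SNAP25 was the most abundant, with 105.79 FPKM in the vehicle library, 98.39 at 5 µM and 92.82 at 10 µM. Its plasma membrane partner STX1A, syntaxin 1A, had 13.65, 16.3 and 17.94 FPKM, a difference of 0.37 at 10 µM. The vesicle SNARE VAMP2 had 8.58, 9.56 and 10.77 FPKM, and VAMP1 had 2.11, 2.15 and 3.56 FPKM, a difference of 0.55 at 10 µM and 0.02 at 5 µM. The SNAREs other than SNAP25 were thus above vehicle and SNAP25 below it. STX1A overlaps exons of BUD23 on the opposite strand over 662 bases and VAMP1 those of TAPBPL over 339 bases, and VAMP2 shares 18.1% of its 50-base sequences with AC129492.3, a gene model. Whether reads were counted by strand is not given in the sources used here, so the STX1A and VAMP1 values are uncertain. The VAMP2 value is uncertain too, because of the shared sequence.

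SYP, synaptophysin, a vesicle membrane protein and pathology marker, had 17.3 FPKM in the vehicle library, 12.77 at 5 µM and 13.25 at 10 µM, a difference of -0.36 at 10 µM. SYP was thus below vehicle at both doses where CHGA, another common marker, was above. Among further markers of this tumour type, NCAM1, INSM1, UCHL1 and ENO2 were above vehicle at both doses and NEUROD1 was below. RAB3A, the vesicle GTPase, had 10.21, 9.85 and 10.81 FPKM, a difference of 0.08 at 10 µM that was -0.06 with GC and length trends removed. SYN1, synapsin I of the vesicle coat, differed from vehicle by -0.02 at 10 µM. Neither RAB3A nor SYN1 stood clear of vehicle.

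CPLX2, a complexin that clamps and primes SNARE complexes, had 9.03, 13.4 and 10.31 FPKM, and was highest at 5 µM. UNC13A, which primes vesicles, had 2.64, 2.58 and 2.23 FPKM. Under the filter were RAB3B, with 0.44, 0.46 and 0.93 FPKM, and CPLX1, with 0.52, 0.56 and 0.50 FPKM.

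In a list of 37 other neuronal exocytosis genes, 36 were listed and 20 passed the filter, with 8 above and 12 below vehicle at 10 µM, 0 past the 2-fold limit and a median of -0.08. RIMS1, an active zone scaffold, had 3.67, 2.74 and 2.43 FPKM, and SYPL1, a relative of synaptophysin, had 47.28, 40.57 and 36.35 FPKM. SYT12 had 6.19, 4.69 and 4.57 FPKM, and SYNGR3, a synaptogyrin, had 1.01, 1.36 and 1.61 FPKM. Of 16 widely expressed SNAREs, 15 were listed and 14 passed the filter, with 10 above and 4 below vehicle at 10 µM, 0 past the 2-fold limit and a median of 0.08. STX4, a plasma membrane syntaxin of many cell types, had 19.16, 25.51 and 28.55 FPKM, and STX3 had 7.27, 9.31 and 10.33 FPKM. VTI1A, a SNARE of the Golgi and endosomes, had 6.06, 4.80 and 3.94 FPKM, and VAMP4 had 3.89, 4.18 and 5.15 FPKM. SYP and SYPL1, and STX1A with STX3 and STX4, lay on the same side of vehicle. Not all related genes did. SYNGR3 was above vehicle where SYP was below, and the syntaxins STX5 and STX6 differed by -0.01 and 0.01 at 10 µM.

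**Figure D3:**
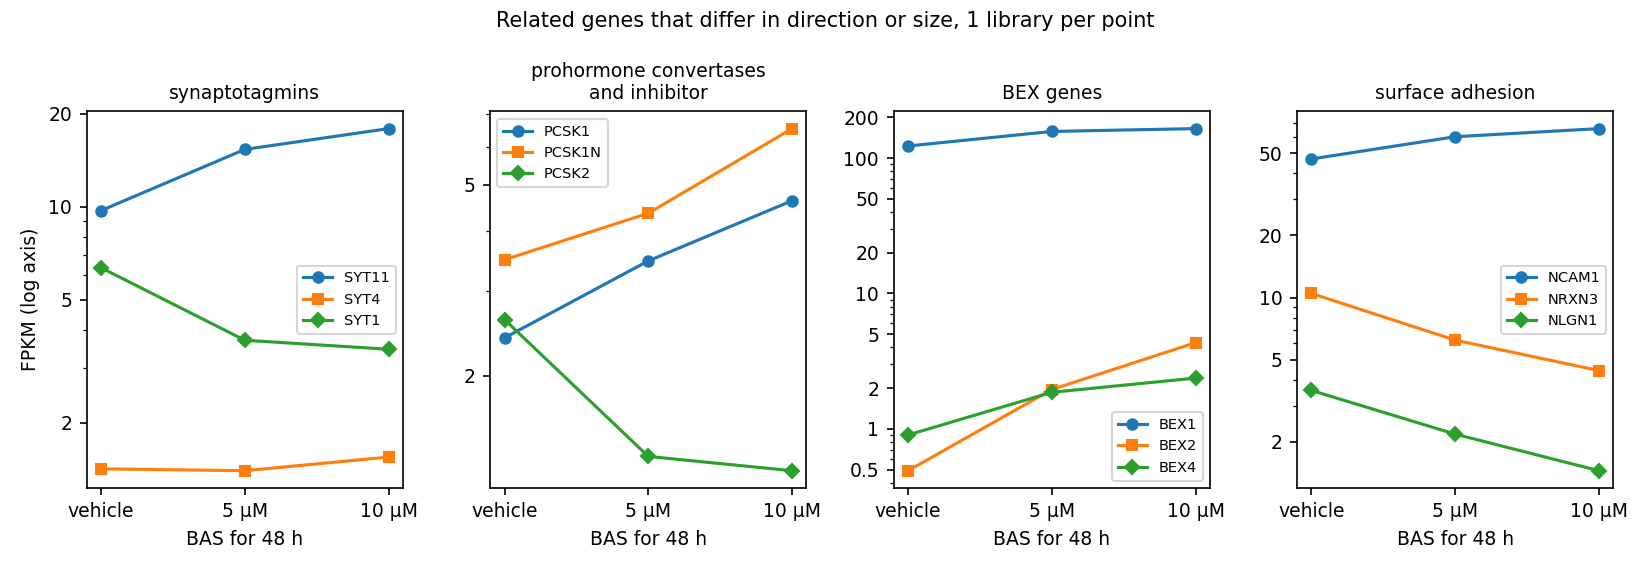
FPKM (log axis) with vehicle, 5 µM and 10 µM BAS, 1 library per point, for synaptotagmins, prohormone convertases with the inhibitor precursor PCSK1N, BEX genes and surface adhesion genes. SYT1 and PCSK2 were lower at both doses while SYT11 and PCSK1 were higher, and NCAM1 was higher while NRXN3 and NLGN1 were lower.

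Of the 16 neuronal genes, 10 passed the filter, with 7 above and 3 below vehicle at 10 µM, against 6 above and 4 below at 5 µM, and median differences of 0.29 and 0.08. At 10 µM the median was 0.13 with no filter, and 0.40 with a filter at 5 FPKM, which gave 0.19 at 5 µM. Their summed level was 564 FPKM in the vehicle library, 654 at 5 µM and 721 at 10 µM. UCHL1, a ubiquitin hydrolase abundant in neurons and known in pathology as PGP9.5, had 82.21 FPKM in the vehicle library, 131.19 at 5 µM and 176.51 at 10 µM, a difference of 1.09 at 10 µM and 0.67 at 5 µM. It made up 94.3 FPKM of the 156 FPKM by which the group sum at 10 µM exceeded vehicle. UCHL1-AS1 overlaps its exons on the opposite strand over 135 bases.

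UCHL1 was also the one 2-fold member whose promoter held the E-box CAGATG, on one strand or the other, the letters that NEUROD1 and related factors bind. Its window is shown with the E-box in capitals, here read as CATCTG, beginning 115 bases before the start.
UCHL1, chr4:41256767-41256864, plus strand: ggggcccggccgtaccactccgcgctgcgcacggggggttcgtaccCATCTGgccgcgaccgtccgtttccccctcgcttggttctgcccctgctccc
The E-box was in 10 of the 54 member promoters (18.5%), of 8 members, and in 14.7% of all promoters. Of 1177 genes past the filter with it, 55.8% were above vehicle at 10 µM and the median difference was 0.04, beside 56.7% and 0.05 of the 9180 genes. At least 2-fold higher were 23 of them (1.95%), beside 1.26% of the 9180. The other 7 members with it were SYN1, RAB3A, L1CAM, ELAVL4, DCX, MAP2 and INA, which did not share a direction. NEUROD1 itself had 104.96 FPKM in the vehicle library, 93.15 at 5 µM and 91.62 at 10 µM.

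BEX1, a small adaptor protein of neural cells, had 122.85, 157.4 and 165.19 FPKM, a difference of 0.42 at 10 µM. ENO2, neuron-specific enolase, another serum marker of small cell lung cancer, had 67.79, 72.88 and 74.51 FPKM, a difference of 0.13. RTN1, a reticulon of the neuroendocrine endoplasmic reticulum, had 2.45, 2.02 and 1.35 FPKM, a difference of -0.55. The cytosolic and membrane markers therefore included the largest difference of the group in either direction.

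NCAM1, the adhesion protein CD56, had 46.93 FPKM in the vehicle library, 60.14 at 5 µM and 65.84 at 10 µM, a difference of 0.48 at 10 µM. It overlaps antisense genes over 703 exon bases. L1CAM, another adhesion protein of the same superfamily, was under the filter with 0.29, 0.63 and 1.19 FPKM and was ordered upward by dose, with 359 bases of overlap on the opposite strand and 7.70% shared 50-base sequence. Both adhesion members were highest at 10 µM.

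Among the growth cone and microtubule genes, DPYSL3, a collapsin response mediator, was the second most abundant member with 219.89, 208.17 and 211.74 FPKM. GAP43, a growth cone membrane protein, had 4.27, 5.35 and 5.87 FPKM, a difference of 0.38 at 10 µM. MAP2, a dendritic microtubule protein, had 8.55, 7.14 and 6.76 FPKM, a difference of -0.30 that came to -0.17 with GC and length trends removed. GAP43 and MAP2 lay on opposite sides of vehicle, and DPYSL3 differed by -0.05.

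ELAVL3, a neuronal RNA-binding protein, had 4.95, 5.15 and 7.04 FPKM, a difference of 0.43 at 10 µM and 0.05 at 5 µM. INA, the filament protein alpha-internexin, had 3.85, 3.38 and 4.58 FPKM, below vehicle at 5 µM and above it at 10 µM. ELAVL4, DCX, NEFL and NEFM, which encode a related RNA-binding protein, doublecortin and neurofilament subunits, did not exceed 0.12 FPKM in any library. The line thus held neuronal surface, growth cone and enzyme transcripts, and little of the neurofilament and doublecortin genes.

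The 13 members under the filter did not exceed 1.5 FPKM anywhere, and 3 of them (VGF, CALCB and L1CAM) reached 1 FPKM in some library. At 0.12 FPKM or less in each library were 8 of them. VGF, CALCB, RAB3B, L1CAM and DCX, 5 of the 13, were ordered upward by dose and 0 were ordered downward. GAL, NEFL and NEFM were at 0 FPKM at both doses, so they could not count as ordered downward. The shares over all genes, 32.9% upward and 20.8% downward, cover genes past the filter only, so these counts have no like background. DCX did not exceed 0.04 FPKM.

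In a list of other neuronal genes, more lay below vehicle than above. Of 38 genes, 36 were listed and 29 passed the filter, with 10 above and 19 below vehicle at 10 µM and a median of -0.09 at both doses. BEX2, a relative of BEX1, had 0.49 FPKM in the vehicle library, 1.95 at 5 µM and 4.33 at 10 µM, a difference of 1.84 at 10 µM and the single gene of that list 2-fold higher. BEX4 had 0.90, 1.86 and 2.37 FPKM, and BEX5, under the filter, had 0, 0.12 and 0.19 FPKM. BEX2 and BEX4 were under 1 FPKM with vehicle, so they passed the filter only through the treated libraries. The 4 BEX genes listed were each ordered upward by dose, BEX1 sharing 3.19% of its 50-base sequences with BEX2. BEX4 and BEX5, and THY1, NCAM2, NRCAM, NFASC, CNTN1, CNTN2 and NLGN2, were named after their values were seen.

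Of the adhesion genes on that list, NRXN3, a neurexin of the presynaptic membrane, had 10.47, 6.22 and 4.43 FPKM, a difference of -1.08 at 10 µM and the single gene of that list 2-fold lower. NLGN1, a postsynaptic partner of neurexins, had 3.55, 2.18 and 1.45 FPKM. THY1, a surface glycoprotein of neurons, had 46.27, 51.92 and 54.51 FPKM. NCAM2, the closest relative of NCAM1, had 6.16, 4.45 and 3.76 FPKM, and TUBB3, the neuronal beta-tubulin, had 20.46, 16.06 and 14.65 FPKM. NCAM1 and THY1 were thus above vehicle, and NCAM2, NRXN3 and NLGN1 below it, at both doses. Also below vehicle at both doses were the adhesion genes NRCAM, NFASC, CNTN1, CNTN2 and NLGN2. Their differences at 10 µM ran from -0.50 for CNTN1 to -0.18 for NRCAM. The adhesion genes named from that list were thus below vehicle with the exception of THY1.

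**Figure D4:**
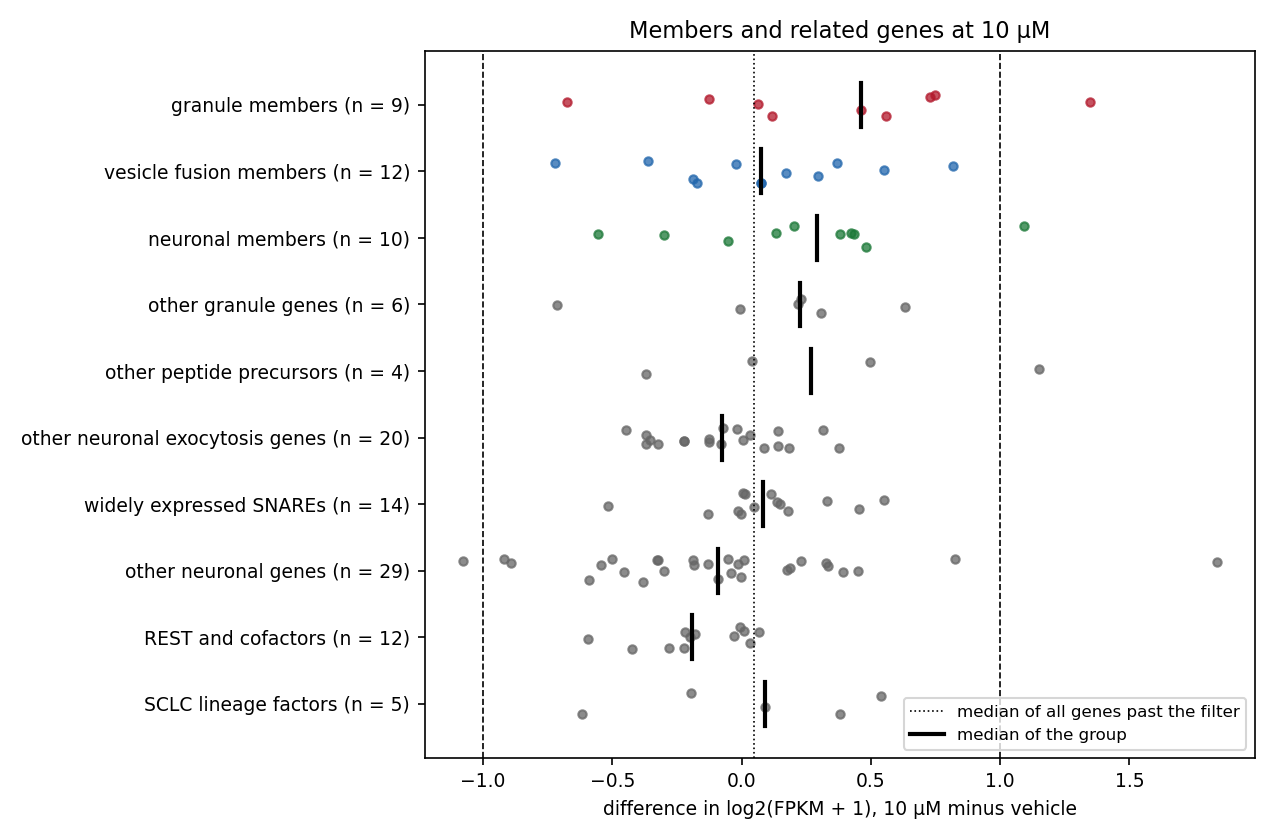
Difference at 10 µM from vehicle in log2(FPKM + 1) for the members in 3 groups (top, coloured) and for 7 lists of related genes, 1 point per gene past the filter. Thick bars are group medians, 0.46 for granule members (0.12 with no filter) and -0.19 for REST and cofactors, a list that also holds SRRM4. The dotted line is the median of all genes, 0.05, and dashed lines mark the 2-fold limit.

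REST, the repressor of many neuronal and granule genes in other cell types, had 4.70 FPKM in the vehicle library, 4.46 at 5 µM and 4.83 at 10 µM. A list of REST, its cofactors and SRRM4, a splicing factor and not a cofactor, had 12 of 12 genes past the filter. At 10 µM, 3 were above vehicle (REST, SRRM4 and EHMT2) and 9 below, with 0 past the 2-fold limit and a median of -0.19. RCOR2, a corepressor, had 29.53, 21.89 and 19.21 FPKM, and CTDSP1, a small phosphatase that joins REST complexes, had 21.9, 18.45 and 16.08 FPKM. EHMT1, a histone methyltransferase, had 14.2, 11.85 and 11.52 FPKM, and KDM1A, a histone demethylase, had 130.45, 117.17 and 111.64 FPKM. REST itself was level, and these 4 cofactors were below vehicle at both doses. Of 13 lineage factors of small cell lung cancer, 11 were listed and 5 passed the filter, with 3 above and 2 below vehicle at 10 µM and a median of 0.09. POU4F1, a neuronal homeodomain factor, had 101.29, 69.87 and 65.66 FPKM, NKX2-1, a lung lineage factor, had 5.22, 7 and 8.03 FPKM, and INSM1, a neuroendocrine zinc finger factor, had 72.85, 81.79 and 95.14 FPKM. POU4F1 and INSM1 lay on opposite sides of vehicle.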

How the data were processed

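RNA-seq libraries from H446 cells were sequenced as single-end reads of 50 bases, per the labels. The deposited values are FPKM that the authors computed, per the file headers, with 2 decimals. Trim Galore, BWA, Bowtie2, Cufflinks, Cuffdiff and hg19 are named in the submitters' processing notes, while no version, role, annotation or scaling is given in the sources used here. The depth is unknown, so no counting error can be given. The 1-library groups allow no test.

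Each file's 16795 rows gave 16793 symbols after repeated symbols were summed. Differences are in log2(FPKM + 1), over the 11512 genes that averaged 1 FPKM or more, and 2-fold means a difference of at least 1. The members, lists and limits were chosen with earlier results of these data known. Every listed member was named, with its value in each library where it passed the filter, and up to 4 genes of each related list with the largest difference at 10 µM, plus REST, NEUROD1, INSM1, POU4F1, GRPR and TUBB3. ISL1, NMBR, BEX4, BEX5, THY1, NCAM2, NRCAM, NFASC, CNTN1, CNTN2, NLGN2, FURIN, PCSK7, STX5, STX6, SRRM4, EHMT2 and the cell markers were added after values were seen. Some genes that this rule names are not reported here.

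GC content, transcript length, exon overlap and shared 50-base sequences came from GENCODE 29 by symbol, for 98.7% of the genes and all members past the filter, and promoters from RefSeq on GRCh38.p14, a build other than the authors' hg19. The calculations were tested on simulated data and used Python 3.11.15, numpy 2.4.6, pandas 2.3.3 and matplotlib 3.10.9.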

Additional observations from a re-analysis of the deposited data

How the results depend on the processing

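No paired analysis was possible because each group had 1 library, and for the same reason no replicate could be left out. The depth behind each FPKM is unknown and 1 library per group gives no error, so small differences carry no weight. Counts of members past the fold limit and group medians were recomputed with a pseudocount of 0.1 or 0.5, without a filter, with one at 5 FPKM, with a 1.5-fold limit, group means, median-ratio scaling, a common total, quantile normalization, and GC and length trends removed. Of 108 such values, 93 stayed within 0.1 on the log2 scale (medians) or 1.5 times (counts). The 93 include many counts that were 0 in both the main and the changed setting, which say little about stability. Among these are all counts between 10 µM and 5 µM, and most of those lower at either dose or higher at 5 µM. Between 10 µM and 5 µM, 0.0434% of all genes passed the 2-fold limit each way in the main setting. The other 15 values are given here with the values within those limits that changed sign or count. The members 2-fold higher at 10 µM were 1 with the 5 FPKM filter, 3 with no filter and 5 at 1.5-fold, and those lower were 2 at 1.5-fold. At 5 µM those higher were 1 with a pseudocount of 0.1 and 3 at 1.5-fold, and those lower were 2 at 1.5-fold. At 1.5-fold the shares of all genes were 6.04% higher and 3.44% lower at 10 µM, and 3.01% and 1.6% at 5 µM. With a changed filter or pseudocount the shares over all genes were not computed, so those member counts have no like background. The granule median at 10 µM was 0.12 with no filter, 0.12 with the 5 FPKM filter and 0.36 as a mean, and at 5 µM it was 0.14 with no filter and 0.14 with the 5 FPKM filter. The neuronal median at 10 µM was 0.13 with no filter and 0.40 with the 5 FPKM filter, which gave 0.19 at 5 µM. The fusion median at 5 µM, -0.02, reversed to 0.14 with the 5 FPKM filter, which leaves fewer genes, and was 0.0032 with no filter, 0.012 with trends removed and 0.0148 as a mean. Of the granule genes, the 5 FPKM filter leaves out CHGA, PCSK1, PCSK1N and PCSK2, which are all of those past the 1.5-fold limit at 10 µM. Other causes were not tested. The largest shift that a scaling gave in the median of all genes was -0.0545 on the log2 scale, with quantile normalization at 10 µM.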
